A study of Mus musculus with 9 samples.

Results

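The Sox and T-box genes are families of developmental transcription factors, and 34 of them (19 Sox and 15 T-box genes, named from RefSeq for the mouse) were read here among 21883 protein-coding genes. Sox proteins bind DNA through an HMG box, a domain that bends the double helix, and T-box proteins bind through the domain that names them. Most members act in a single tissue or a short window of the embryo, where they specify neurons, cartilage, heart, limb or endothelium, and many are known targets of Polycomb repression in cells that do not use them. Polycomb repressive complex 2 contains the methyltransferase EZH2 and its partner SUZ12 and deposits H3K27me3, a mark of silent chromatin. H3K4me3 marks the starts of active or poised genes, H3K27ac marks active promoters and enhancers, p300 is an acetyltransferase that produces H3K27ac, and N-MYC is the MYC-family factor that drives these tumours.

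Chromatin came from thymic MYCN-driven T cell lymphoma cells of C57BL/6J mice and was profiled by ChIPmentation, in which a transposase inserts sequencing adapters into chromatin still held by the antibody. There was 1 library for each of 7 antibodies (EZH2, SUZ12, H3K27me3, N-MYC, p300, H3K27ac and H3K4me3), each with a deposited peak list. All 7 groups share the same strain, tissue and tumour driver, and no library of untransformed thymus was analysed here. The allele that expresses MYCN, the promoter that drives it, the ages of the mice and whether animals were pooled are not given in the sources used here. Without replicate libraries no comparison has a replicate check, no test was made and no p-value is given. A peak carried by part of the cells and a weaker peak in all cells cannot be told apart in bulk chromatin.

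The lists held from 9798 (N-MYC) to 123056 (H3K27me3) peaks, and the number of reads behind them is unknown. The peaks at thymocyte marker genes matched the label in part: 10 of 14 markers, among them Cd3e, Lck and Tcf7, carried both H3K27ac and H3K4me3. Over all protein-coding genes, H3K27ac was at 52.2% and H3K4me3 at 51.6%. Cd3d and Cd3g had the same H3K27ac (25.8) and H3K4me3 (36.3) values and may share peaks. Of the 10 markers with both marks, Bcl11b (H3K27ac 19.3, H3K4me3 41.8) and Gata3 (28.3 and 48.9) had H3K27me3 as well, and Gata3 also SUZ12. The starts of Cd8a and Rag1 carried H3K27me3 alone, and Cd8b1 and Ptcra had no peak in any list. Both erythroid markers read (Gata1 and Klf1) had H3K27ac and H3K4me3, against 1 of 4 B-cell markers, none of 5 myeloid markers, 1 of 5 thymic epithelial markers, none of 4 fibroblast markers and none of 4 endothelial markers. Those with both marks were Cd79a and Epcam, and Epcam carried SUZ12 as well. H3K27ac without H3K4me3 stood at Spi1 (19.8) and, at 2.84 to 4.82, at Csf1r, Itgam, Foxn1, Pdgfrb and Pecam1.

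A gene was counted for a list when a peak overlapped the 1 kb on either side of a start by at least 1 bp. Starts were those of the RefSeq promoter table together with the 5′ end of the gene model, for 24 members. The other 10 (Sox3, Sox7, Sox9, Sox10, Sox17, Sox18, Tbx2, Tbx3, Tbx5 and Tbx15) have no entry in that table and were read at both ends of the gene, and genes in the background were read by the same rule. The fold enrichment of a peak is the authors' own linear value over background, and where several peaks met the windows the strongest is given.

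Most Sox and T-box genes carried the Polycomb features at their starts, and few carried active marks. H3K27me3 was called at 28 of the 34 members (82.4%), against 26.5% of all protein-coding genes. SUZ12 was called at 24 members (70.6%, against 14.1% of all genes) and EZH2 at 27 (79.4%, against 46.5%). The active lists ran the other way. H3K4me3 met 10 members (29.4%, against 51.6% of all genes) and H3K27ac met 8 (23.5%, against 52.2%). N-MYC met 4 members (11.8%, against 33.4%), and p300 met 1 (2.94%, against 39.8%). With the 24 members that have a start in the table, H3K27me3 was at 18 (75.0%, against 25.2% of the 17491 genes so placed) and SUZ12 at 15 (62.5%, against 13.3%). EZH2 was at 17 of these 24 (70.8%, against 47.0%), H3K27ac at 8 (33.3%, against 52.9%), H3K4me3 at 10 (41.7%, against 52.9%), N-MYC at 4 (16.7%, against 34.7%) and p300 at 1 (4.17%, against 41.3%). The order of the lists was thus the same with and without the 10 genes read at both ends, all of which were in the Polycomb class.

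**Figure D1:**
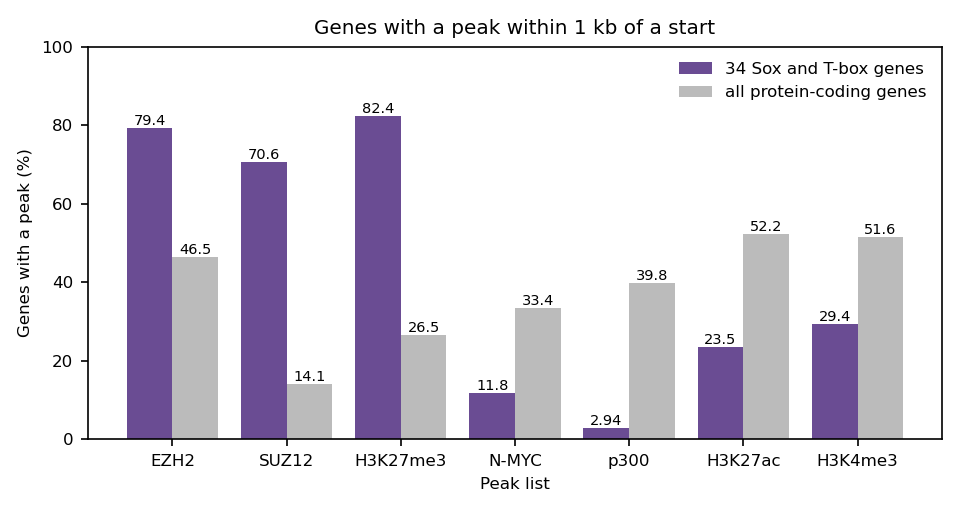
Share of genes with a peak within 1 kb of a start, in percent, for each of the 7 lists. Purple bars are the 34 Sox and T-box genes and grey bars all 21883 protein-coding genes; the purple bar is the taller for EZH2, SUZ12 and H3K27me3 and the shorter for the 4 active lists.

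Members were then divided by the 4 lists that define repressed and active starts. The Polycomb class (H3K27me3 or SUZ12 with neither H3K27ac nor H3K4me3) held 21 members (61.8%), against 17.3% of all genes. The mixed class, which has a Polycomb feature and an active mark, held 7 (20.6%, against 9.32%): Sox5, Sox6, Sox8, Sox12, Sox13, Sox21 and Tbx1. The active class, with H3K27ac or H3K4me3 and no Polycomb feature, held 5 (14.7%, against 46.3%): Sox4, Sox30, Tbx6, Tbx19 and Tbx21. Sox15, known from muscle progenitors, was the 1 member with no peak of the 4 lists at its start, where 27.1% of all genes had none. At 17 members (50.0%) EZH2, SUZ12 and H3K27me3 stood together without any of the 4 active lists, a pattern of 7.53% of all genes.

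**Figure D2:**
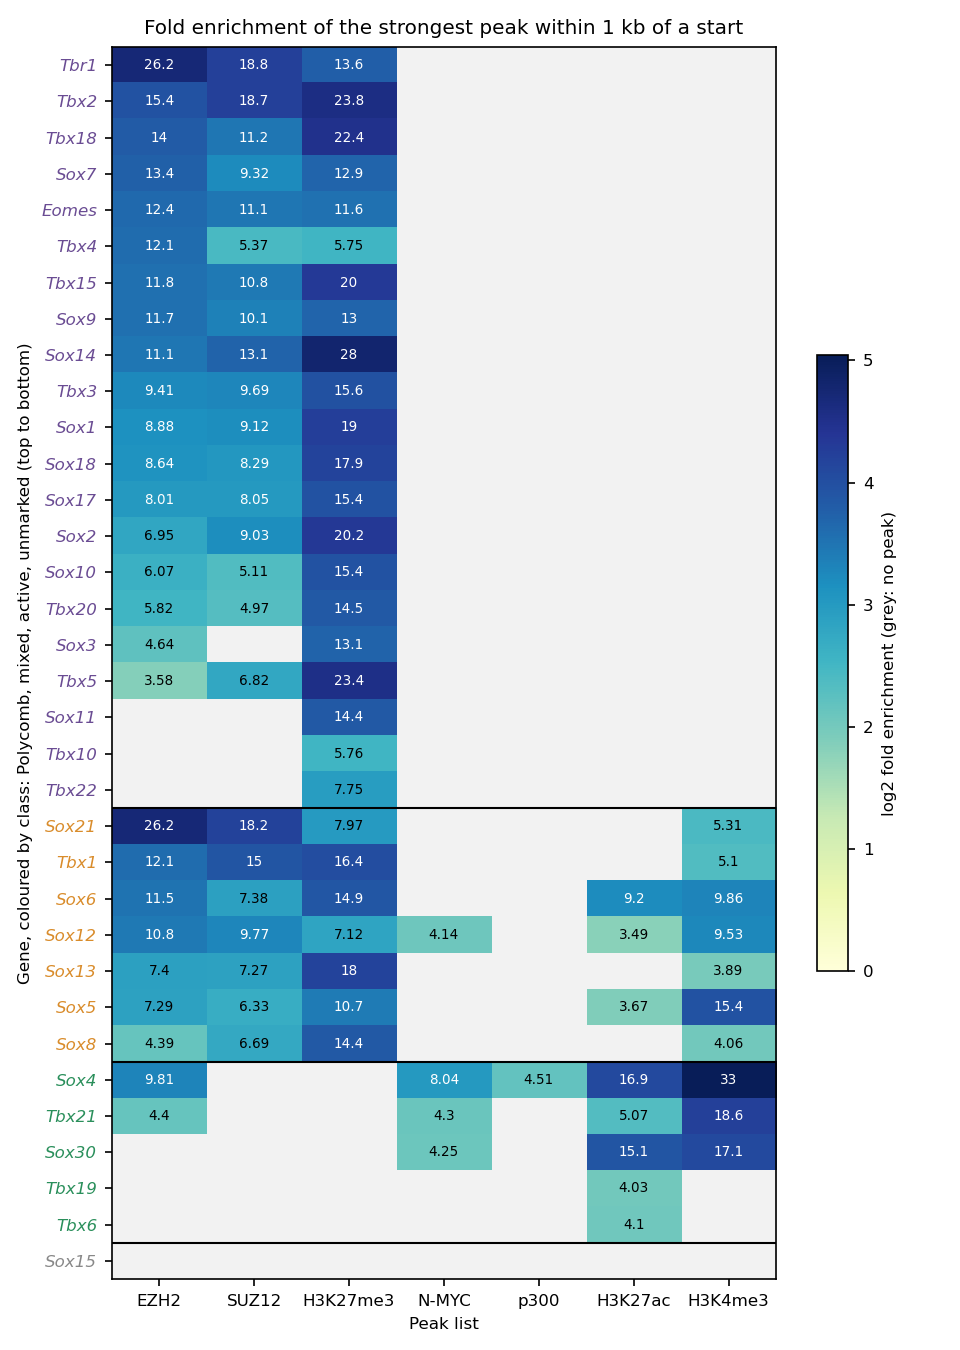
Fold enrichment of the strongest peak within 1 kb of a start for each member (rows) and list (columns), printed in each cell and coloured on a log2 scale, with grey for no peak. Rows are grouped from top to bottom into the Polycomb, mixed, active and unmarked classes; Sox4 is the only row with peaks in all 4 active lists, and it has an EZH2 peak without SUZ12 or H3K27me3.

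The promoters of 7 members show how the sequence at the start varied between these classes, and they are given here as the 250 bases before the start with each CpG dinucleotide in capitals. The sequences come from RefSeq (GRCm38.p6), are written 5′ to 3′ on the strand of the gene, and were chosen to set the Sox C paralogues side by side and to show a start from each class. Sox4 (chr13:28953700-28953949, minus strand) and Tbx21 (chr11:97115332-97115581, minus) were active, Sox12 (chr2:152398047-152398296, minus) was mixed, and Sox11 (chr12:27342719-27342968, minus), Sox14 (chr9:99876171-99876420, minus) and Tbx10 (chr19:3992502-3992751, plus) carried H3K27me3. Sox15 (chr11:69654787-69655036, plus) was unmarked.
Sox4: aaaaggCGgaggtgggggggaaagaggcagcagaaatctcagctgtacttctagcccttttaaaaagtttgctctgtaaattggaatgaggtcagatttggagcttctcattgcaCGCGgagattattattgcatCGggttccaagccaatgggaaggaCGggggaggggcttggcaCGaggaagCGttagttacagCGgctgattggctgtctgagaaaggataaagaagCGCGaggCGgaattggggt
Sox12: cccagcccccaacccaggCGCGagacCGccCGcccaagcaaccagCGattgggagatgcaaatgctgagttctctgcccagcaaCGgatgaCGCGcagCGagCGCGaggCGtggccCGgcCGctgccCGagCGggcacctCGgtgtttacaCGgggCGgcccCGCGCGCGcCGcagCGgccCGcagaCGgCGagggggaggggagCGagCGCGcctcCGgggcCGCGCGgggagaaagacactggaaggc
Sox11: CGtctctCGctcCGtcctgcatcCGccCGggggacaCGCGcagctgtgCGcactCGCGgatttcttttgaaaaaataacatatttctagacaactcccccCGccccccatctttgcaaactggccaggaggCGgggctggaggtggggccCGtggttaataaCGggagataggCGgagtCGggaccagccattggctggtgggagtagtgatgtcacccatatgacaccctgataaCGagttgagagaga
Tbx21: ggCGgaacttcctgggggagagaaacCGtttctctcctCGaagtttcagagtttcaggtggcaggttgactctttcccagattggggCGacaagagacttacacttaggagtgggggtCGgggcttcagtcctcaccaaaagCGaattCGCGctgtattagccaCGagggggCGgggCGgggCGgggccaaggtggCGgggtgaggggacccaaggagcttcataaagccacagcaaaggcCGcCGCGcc
Sox14: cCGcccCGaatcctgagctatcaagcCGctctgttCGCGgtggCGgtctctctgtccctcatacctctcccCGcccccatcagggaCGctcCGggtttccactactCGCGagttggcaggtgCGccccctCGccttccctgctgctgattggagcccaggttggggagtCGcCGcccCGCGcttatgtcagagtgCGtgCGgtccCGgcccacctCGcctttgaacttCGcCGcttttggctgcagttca
Tbx10: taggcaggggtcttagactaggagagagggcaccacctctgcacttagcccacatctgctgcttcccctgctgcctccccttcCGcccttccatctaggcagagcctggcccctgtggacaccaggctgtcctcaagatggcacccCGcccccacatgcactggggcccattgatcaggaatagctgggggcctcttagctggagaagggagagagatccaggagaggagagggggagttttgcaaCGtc
Sox15: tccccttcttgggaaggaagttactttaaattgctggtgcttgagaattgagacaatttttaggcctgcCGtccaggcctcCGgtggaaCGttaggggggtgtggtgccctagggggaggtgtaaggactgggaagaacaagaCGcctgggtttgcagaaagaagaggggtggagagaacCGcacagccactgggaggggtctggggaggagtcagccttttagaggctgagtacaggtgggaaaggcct

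The 250 bases held 35 CpGs at Sox12, 23 at Sox14, 17 at Sox11, 16 at Tbx21, 11 at Sox4, 5 at Sox15 and 3 at Tbx10. Sox4, the most strongly marked active member, thus had fewer CpGs here than the H3K27me3-marked Sox11 and Sox14, but more than Tbx10. The ratio of observed to expected CpG over these bases differed less, at 0.801 for Sox4, 0.81 for Sox11 and 0.881 for Sox14. It was 0.128 for Tbx10. Over the 300 bp windows of the table, which run from 250 bases before to 50 after a start, the 24 members had 32 windows. The ratio of observed to expected CpG had a median of 0.70 (range 0.0716 to 1.07) in the 14 Polycomb windows, against 0.493 for such windows of all protein-coding genes. The median was 0.667 in the 6 mixed windows and 0.553 in the 6 active ones, against 0.766 and 0.771 over all genes. The 6 unmarked windows had 0.219, against 0.176. Each window was classed by its own start and not by the class of the gene. The unmarked ones were those of Sox15, of 1 start of Tbx22 and of internal starts of Sox5 and Sox6. The marked 5′ end of Sox5 had no window. The lowest ratios among member windows with H3K27me3 were those of Tbx10 (0.143) and of the second and the third start of Tbx22 (0.109 and 0.0716). The next lowest was that of Tbx4 (0.314).

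**Figure D3:**
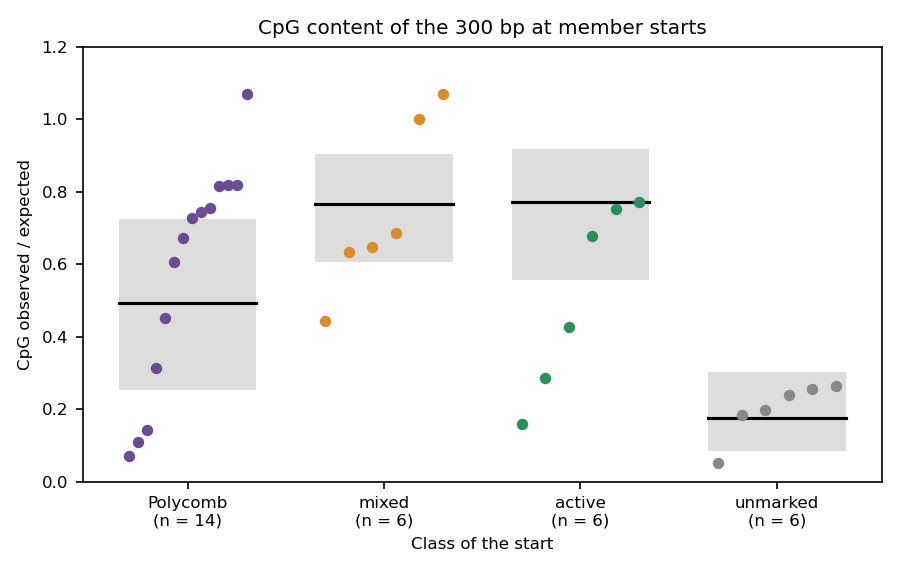
Ratio of observed to expected CpG in the 300 bp windows at member starts (points, 32 windows of 24 genes), by the class of that start. Grey boxes span the middle 50% of the windows of all protein-coding genes in the class and black lines mark their medians; the member points of the Polycomb class run from 0.0716 to 1.07.

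The E-box CACGTG, a palindrome that reads the same on both strands and is bound by MYC-family factors, was found in 1 of the 32 member windows (3.12%), that of Sox8. It was found in 7.84% of the 21262 windows of protein-coding genes. The windows of the 4 members with an N-MYC peak at a start (Sox4, Sox12, Sox30 and Tbx21) did not hold these letters. At Sox12 and Sox30 the N-MYC peak lay wholly outside the window, and at Tbx21 its summit lay 540 bp before the start. The search therefore cannot tell whether those 3 peaks hold the motif. At Sox4 the N-MYC summit, 109 bp before the start, lay inside the window, where the motif was not found. The Sox4 peak, 1.85 kb wide, ran past the window on both sides, and those parts were not searched.

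Among the Sox genes, the B1 group (Sox1, Sox2 and Sox3), known for keeping neural progenitors undifferentiated, was in the Polycomb class throughout. Sox2, which is also a pluripotency factor, had an EZH2 fold enrichment of 6.95, a SUZ12 value of 9.03 and an H3K27me3 value of 20.2. Its H3K27me3 peak was 38.8 kb wide and covered the whole gene. Sox1 had values of 8.88 (EZH2), 9.12 (SUZ12) and 19.0 (H3K27me3). Sox3, on the X chromosome, had an H3K27me3 peak of 13.1 but an EZH2 peak of 4.64 that was only 217 bp wide, and no SUZ12 peak. All 3 genes thus shared the mark, while Sox3 lacked the broad EZH2 and SUZ12 peaks seen at Sox1 and Sox2.

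The B2 group, which counters the B1 genes in neurons, held the strongest Sox peaks of the 3 Polycomb lists. Sox21 had the fifth strongest of 18730 EZH2 peaks (26.2, 16.3 kb wide) and a SUZ12 peak of 18.2, ranked 12 of 11100. Its H3K27me3 fold enrichment was modest for a member, 7.97, over a peak of 23.3 kb. Sox14 showed the reverse order. Its H3K27me3 peak of 28 ranked 4 of 123056, with EZH2 at 11.1 and SUZ12 at 13.1. Sox21 also carried an H3K4me3 peak of 5.31, 768 bp wide with its summit 59 bp inside the gene, and for that reason falls in the mixed class.

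The C group (Sox4, Sox11 and Sox12) divided into 3 different states. Sox4, which is needed for lymphocyte development, was active: H3K4me3 had a fold enrichment of 33.0 over 4.97 kb, H3K27ac 16.9 over 3.65 kb, N-MYC 8.04 and p300 4.51. It also carried an EZH2 peak of 9.81 (2.33 kb wide), which lies among the strongest 4.32% of the EZH2 list, with no SUZ12 or H3K27me3 peak within 20 kb of its start. Over all genes of the active class with EZH2, the median EZH2 value was 5.72. The N-MYC and p300 summits stood at the start, 109 bp before and 81 bp after it, and the EZH2 and H3K4me3 summits stood inside the gene, 947 and 871 bp after the start.

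Sox4 had further active elements nearby. A separate H3K4me3 peak of 13.8 lay upstream, from -6.281 to -3.864 kb relative to the start, and on it stood N-MYC peaks of 6.95 and 4.36, a p300 peak of 3.90 and an H3K27ac peak of 8.38. No EZH2 peak was called there. Within the gene, 4 p300 peaks covered 63.1% of the body. Downstream, H3K27ac reached 8.58 from 9.466 to 11.82 kb after the start, beyond the gene's end at 4.78 kb. No other protein-coding start was annotated within 30 kb.

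Sox11, a neuronal paralogue of Sox4, had H3K27me3 alone, with a fold enrichment of 14.4 over 5.51 kb, and no peak of the other 6 lists within 20 kb of its start. It is the clearest case of the mark without a called complex. Sox12 was mixed: EZH2 (10.8), SUZ12 (9.77) and H3K27me3 (7.12) stood over the same start as H3K4me3 (9.53 over 2.39 kb), a weak N-MYC peak (4.14, 291 bp wide) and a weak H3K27ac peak (3.49, 240 bp wide). The EZH2 value at Sox12 was close to that at Sox4 (10.8 and 9.81), while the H3K4me3 value was less than that of Sox4 (9.53 against 33.0).

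**Figure D4:**
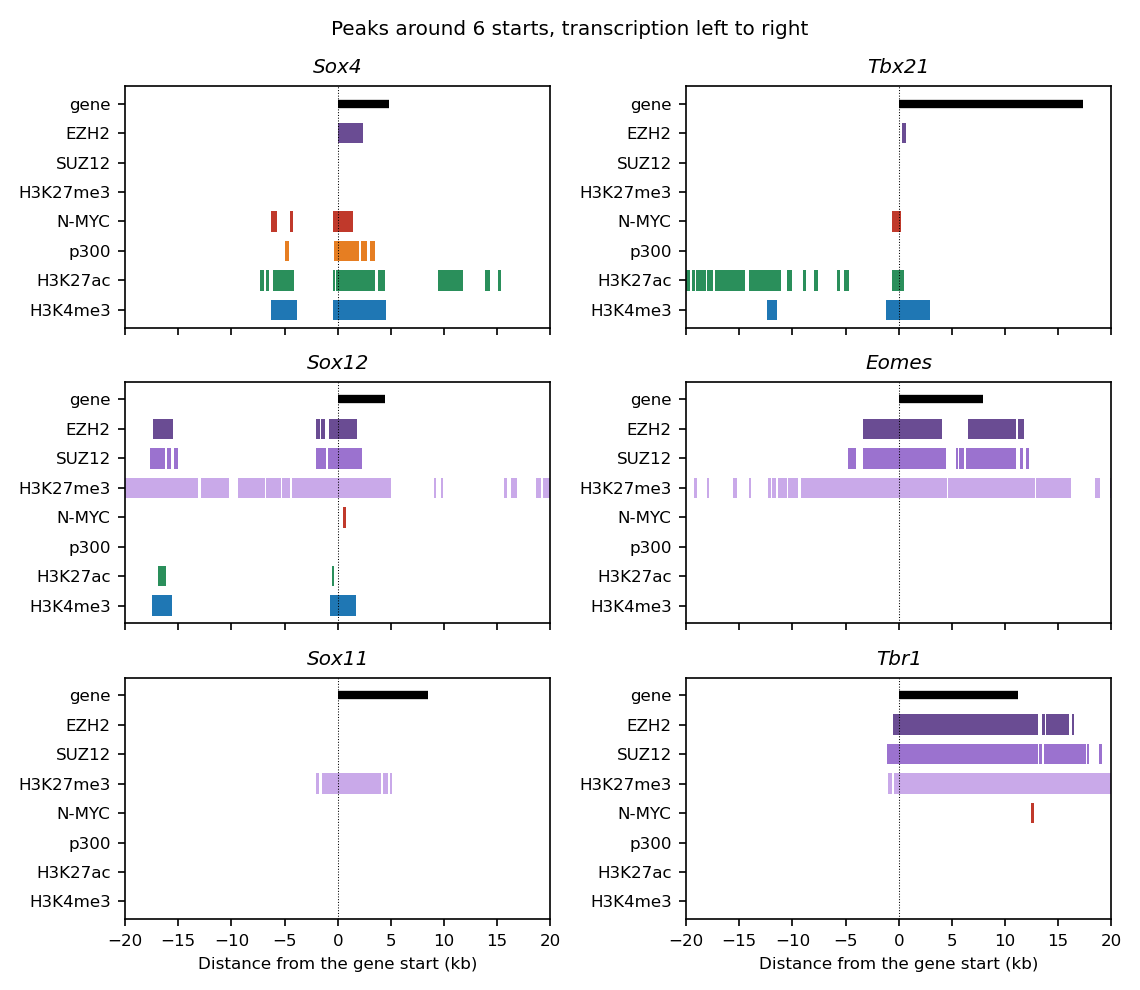
Peaks of the 7 lists from 20 kb before to 20 kb after the start of the Sox C genes (left) and the Tbr1 subfamily (right), with distance from the start in kb, the gene as a black bar and transcription from left to right. Sox4 and Tbx21 show no SUZ12 or H3K27me3 peak in the window, Sox11 shows H3K27me3 only, and Eomes and Tbr1 show the 3 Polycomb lists over the start.

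The D group (Sox5, Sox6 and Sox13), which acts in cartilage and, for Sox5 and Sox13, in gamma-delta T cells, was mixed throughout. At the 5′ end of the Sox5 gene, EZH2 (7.29), SUZ12 (6.33) and H3K27me3 (10.7) lay over an H3K4me3 peak of 15.4 and an H3K27ac peak of 3.67. The start that the promoter table lists, which lies far inside the gene, carried no peak. The Sox13 start had EZH2 (7.40), SUZ12 (7.27), H3K27me3 (18.0) and an H3K4me3 peak of 3.89 that was 224 bp wide. The active signal of Sox13 lay inside the gene instead. H3K27ac of 19.3 over 2627 bp, H3K4me3 of 9.33 and p300 of 3.93 were called 38.2 to 38.5 kb from the nearest start, and 9 H3K27ac peaks covered 17.6% of the body.

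Sox6, known from cartilage, muscle and red-cell development, used its starts differently. Its 3 upstream starts carried EZH2 (up to 11.5), SUZ12 (7.38) and H3K27me3 (14.9), and an H3K4me3 peak of 7.41 stood at 1 of them. An internal start at chromosome 7 position 115846140 carried H3K27ac (9.20) and H3K4me3 (9.86) with no Polycomb feature, and 3 further internal starts carried no peak. The body held 29 H3K27ac peaks. At the erythroid markers the H3K27ac values were 5.48 (Gata1) and 13.6 (Klf1), with H3K4me3 of 12.1 and 19.8, and the part of red-cell chromatin in the Sox6 result was not tested.

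The E group comprises Sox8, Sox9 and Sox10, regulators of testis, cartilage and neural crest. Sox9 had EZH2 of 11.7, SUZ12 of 10.1 and H3K27me3 of 13.0, and Sox10 had 6.07, 5.11 and 15.4, with no active list at either. Sox8 had EZH2 of 4.39, SUZ12 of 6.69 and H3K27me3 of 14.4, together with an H3K4me3 peak of 4.06 that was 333 bp wide. The F group (Sox7, Sox17 and Sox18), known from endothelium, was in the Polycomb class throughout, with EZH2 from 8.01 (Sox17) to 13.4 (Sox7) and H3K27me3 from 12.9 (Sox7) to 17.9 (Sox18). Sox30, a factor of sperm development, had neither EZH2 nor a Polycomb feature. Its start carried H3K27ac of 15.1, H3K4me3 of 17.1 and an N-MYC peak of 4.25 that was 204 bp wide.

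In the T-box family 11 of 15 members were in the Polycomb class, 1 was mixed and 3 were active. The Tbr1 subfamily was divided too, with 2 members in the Polycomb class and 1 active. Tbx21, which encodes T-bet, the factor of type 1 helper T cells, had H3K4me3 of 18.6 over 4.15 kb, H3K27ac of 5.07, N-MYC of 4.30 and an EZH2 peak of 4.40 that was 399 bp wide. It had no p300, SUZ12 or H3K27me3 peak within 20 kb. The strongest H3K27ac near Tbx21 was not at the start: 11 peaks lay upstream, between -20.209 and -4.729 kb relative to it, the highest at 11.4, on which an H3K4me3 peak of 6.03 stood.

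Eomes, the close relative of Tbx21 in killer and memory T cells, had the opposite state, with EZH2 of 12.4, SUZ12 of 11.1 and H3K27me3 of 11.6 and no active peak within 20 kb. Tbr1, a factor of cortical neurons, had the fourth strongest EZH2 peak of the list (26.2 over 12.9 kb), SUZ12 of 18.8 (rank 8) and H3K27me3 of 13.6 over 26.4 kb. The 1 peak of the active lists within 20 kb of Tbr1 was an N-MYC peak of 4.05 beyond the gene, 12.419 kb after the start.

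The Tbx2 subfamily (Tbx2, Tbx3, Tbx4 and Tbx5), whose genes pattern limbs and heart, was in the Polycomb class throughout. Tbx2 had a SUZ12 peak of 18.7 (rank 9), EZH2 of 15.4 and H3K27me3 of 23.8 (rank 29). Tbx3 lay in the widest H3K27me3 domain of the members, 73.7 kb once peaks within 3 kb of each other were joined. At 1 end of Tbx5 the H3K27me3 peak was strong and the EZH2 peak weak, with H3K27me3 of 23.4 and SUZ12 of 6.82. The EZH2 value of 3.58 was the lowest of any member with a peak. That EZH2 peak was 0.654 kb wide, but the joined EZH2 domain there held 13 peaks over 12.2 kb. EZH2 peaks covered 23.7% of the Tbx5 body. Tbx4 had the reverse order of peak values, with EZH2 of 12.1, SUZ12 of 5.37 and H3K27me3 of 5.75. That was the lowest H3K27me3 value of the members. Away from its starts, Tbx4 also carried H3K27ac peaks of 8.21 (1067 bp wide) and 9.79 (8041 bp wide), with no H3K4me3 on them. H3K27ac covered 25.1% of the Tbx4 body.

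These genes lie in pairs, Tbx2 with Tbx4 on chromosome 11 and Tbx3 with Tbx5 on chromosome 5. H3K27me3 peaks covered 54.4% of the 44.4 kb between Tbx2 and Tbx4 and 24.5% of the 112.0 kb between Tbx3 and Tbx5, and no H3K27ac, p300 or N-MYC peak was called in either gap. In neither pair did the joined H3K27me3 domain run from one gene to the other. An H3K4me3 peak stood in the gap between Tbx2 and Tbx4.

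In the Tbx1 subfamily, Tbx1, which is needed to form the pharyngeal pouches from which the thymus arises, had EZH2 of 12.1, SUZ12 of 15.0 and H3K27me3 of 16.4, and an H3K4me3 peak of 5.10 at its upstream start. Tbx15, Tbx18 and Tbx20, known from skeleton and heart, had all 3 Polycomb lists, with EZH2 of 11.8, 14.0 and 5.82. Tbx10 and the palate gene Tbx22 had H3K27me3 alone, with fold enrichments of 5.76 and 7.75. Tbx6, a gene of the presomitic mesoderm, and Tbx19, a pituitary factor, entered the active class by weak H3K27ac peaks alone (4.10 and 4.03). Neither had an H3K4me3, N-MYC, p300 or EZH2 peak at the start. The Tbx6 body held 4 H3K27ac peaks over 42.1% of its length, part of a joined H3K27ac domain of 7.76 kb. Another protein-coding start lies 4520 bp from that of Tbx6, and its part in this signal was not tested. Inside Tbx19, H3K27ac reached 11.0 with its summit 9.15 kb from the start, along with 3 H3K4me3 peaks of 3.83 to 4.37 and a p300 peak of 3.88.

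At all 7 mixed members an H3K4me3 peak lay wholly inside an H3K27me3 peak, and all 7 also had EZH2 and SUZ12. These H3K4me3 peaks were narrow at Sox8, Sox13, Sox21 and Tbx1 (224 to 768 bp, fold enrichment 3.89 to 5.31) and broader at Sox5 and Sox12 (1848 and 2389 bp, 15.4 and 9.53). The median H3K4me3 value over all genes with such a peak was 26.5, so each mixed member lay below it. H3K4me3 and H3K27me3 stood together at these 7 of 34 members (20.6%), against 8.4% of all genes. Of the 28 members with H3K27me3 at a start they make up 25.0%, against 31.7% of all genes with H3K27me3. Whether both marks lay on the same chromosomes or in different cells cannot be told apart.

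Among members with H3K27me3, 24 of 28 had SUZ12 (85.7%), against 52.9% of all genes with H3K27me3, and 25 had EZH2 (89.3%, against 56.5%). The exceptions for SUZ12 were Sox3, Sox11, Tbx10 and Tbx22, and Sox11, Tbx10 and Tbx22 lacked EZH2 too. Where called, the features were also strong. The median EZH2 fold enrichment was 9.81 over 27 members (3.58 to 26.2), against 5.85 over all genes with an EZH2 peak. SUZ12 had a median of 9.22 over 24 members, against 5.79, and H3K27me3 had 14.7 over 28, against 9.23.

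At the 24 members with all 3 Polycomb lists (70.6%, against 13.1% of all genes), the peaks differed in width. The H3K27me3 peak was the widest at all 24 (median 16.2 kb), and SUZ12 was wider than EZH2 at 21 (medians 8.02 and 6.89 kb). The EZH2 peak lay wholly inside the H3K27me3 peak at 22. SUZ12 was compared by width only: at Sox1 the EZH2 peak ran past the SUZ12 peak, and at Sox6, Tbx18 and Tbr1 SUZ12 ran past H3K27me3. These widths and overlaps were read for the members only, not over all genes. EZH2 and SUZ12 ranked the members alike, with a Spearman correlation of 0.794 and a Pearson correlation of 0.827 across these 24 genes. EZH2 and H3K27me3 did not, with a Spearman correlation of -0.182 and a Pearson correlation of -0.247. The genes are points from the same 3 libraries and share peak calling, so these are descriptions. By the strongest peak at a start, Sox21, Tbr1 and Tbx4 had high EZH2 for their H3K27me3. Tbx5, Sox14 and Sox2 had high H3K27me3 for their EZH2 by the same measure.

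**Figure D5:**
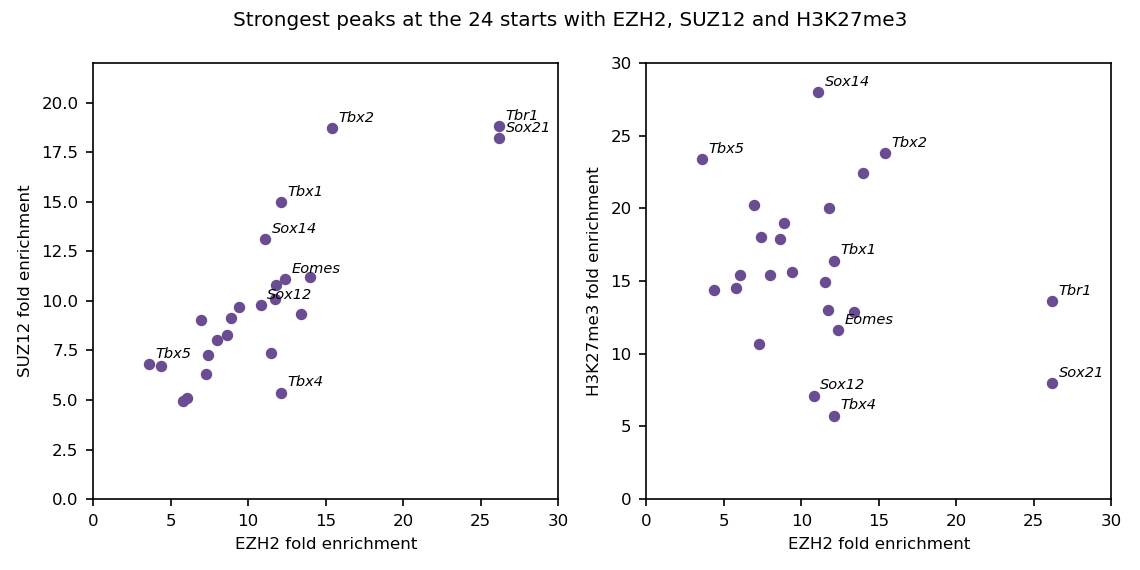
Fold enrichment of EZH2 (x axis) against SUZ12 (left) and H3K27me3 (right) at the 24 members with all 3 peaks, 1 point per gene. SUZ12 rises with EZH2 up to Tbr1 and Sox21 at 26.2, while H3K27me3 is highest at Sox14 (28) and low at Sox21 (7.97).

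The mark extended over the genes themselves. H3K27me3 peaks covered a median of 73.4% of the gene body over the 34 members and of 0% over all genes, and 13 members (38.2%, against 2.19% of all genes) lay wholly inside such peaks. Over the 24 members with a start in the table the median was 42.0%. Short genes such as Sox1, Sox2 and Sox14 were covered whole, while the mark took 9.83% of the 953863 bp of Sox5 and 4.12% of the 569905 bp of Sox6. Over the gene bodies H3K27me3 was called at 28 members (82.4%, against 30.1% of all genes), EZH2 at 26 (76.5%, against 47.0%) and SUZ12 at 24 (70.6%, against 14.9%). H3K27ac was called in 10 bodies (29.4%, against 57.9%), H3K4me3 in 10 (29.4%, against 54.0%), N-MYC in 4 (11.8%, against 35.3%) and p300 in 3 (8.82%, against 42.0%), which were those of Sox4, Sox13 and Tbx19.

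Joined H3K27me3 domains at member starts had a median width of 25.5 kb, against 10.4 kb over all genes with the mark. Most members of the Polycomb class had few H3K27ac peaks off H3K4me3 in and around the gene. Such peaks were counted over the gene body and 100 kb on either side. The 21 members of that class had a median of 0 (0 to 57, the highest at Tbx10), against 7 over all genes. Tbx4 had 29 and Sox10 had 23. All genes of the Polycomb class were not counted separately. Among the active members, Sox4 had 5 such peaks, Tbx21 had 19, Tbx19 had 23, Tbx6 had 27 and Sox30 had 35. The counts of Tbx6 and Tbx19 include the H3K27ac peaks at their starts.

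The members with a known role in thymocytes or other T and innate lymphoid cells (Sox4, Sox5, Sox12, Sox13, Tbx21 and Eomes) were set beside the other 28. H3K4me3 was at 5 of these 6, all but Eomes, and at 5 of the 28. H3K27ac was at 4 of 6 and 4 of 28, and N-MYC at 3 of 6 (Sox4, Sox12 and Tbx21) and 1 of 28 (Sox30). Over all genes the shares were 51.6% for H3K4me3, 52.2% for H3K27ac and 33.4% for N-MYC, so with 6 genes the T-lineage counts of H3K27ac and N-MYC lay near the background and those of the 28 lay below it. The single p300 start, Sox4, was in the T-lineage list, and p300 was at 39.8% of all genes. Polycomb features were not missing from the T-lineage list. H3K27me3 was at 4 of 6 and 24 of 28, against 26.5% of all genes. SUZ12 was at 4 of 6 and 20 of 28, against 14.1%, and EZH2 at 6 of 6 and 21 of 28, against 46.5%. The H3K4me3 values of the 5 T-lineage members ran from 3.89 at Sox13 to 33.0 at Sox4 with a median of 15.4, and those of the 5 others from 4.06 at Sox8 to 17.1 at Sox30 with a median of 5.31, so the groups overlapped.

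Other genes with an HMG box or a T-box were read from a list of 14. H3K27me3 was at 7 of them (50.0%, against 82.4% of the members and 26.5% of all genes). SUZ12 was also at 7 (50.0%, against 70.6% of the members and 14.1% of all genes). EZH2 was at 13 (92.9%), a larger share than the 79.4% of the members and the 46.5% of all genes. H3K27ac and H3K4me3 were each at 9 (64.3%), against 52.2% and 51.6% of all genes. N-MYC and p300 were each at 7 (50.0%), against 33.4% and 39.8% of all genes. Tcf7l2, Tox2, Tox3 and T were in the Polycomb class, Bbx, Lef1 and Tcf7l1 were mixed, Cic, Hbp1, Mga, Tcf7, Tox and Tox4 were active, and Sry was unmarked. Tcf7, a leading factor of thymocyte development, was active with EZH2 of 7.89, N-MYC of 7.16, p300 of 5.95, H3K27ac of 30.2 and H3K4me3 of 30.4. Its relative Lef1 had a peak of every list, with EZH2 of 9.99, SUZ12 of 7.85, H3K27me3 of 9.40 and H3K4me3 of 39.4. The T-box genes outside the members differed from each other: T, the Brachyury gene, was in the Polycomb class (EZH2 8.52, H3K27me3 17.9), and Mga, which encodes a partner of MAX, was active with N-MYC of 15.9.

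The active calls depended on list length. With every list limited to its 9798 strongest peaks by q-value, H3K27ac was left at 2 members and H3K4me3 at 5. When the summit, and not any part of the peak, had to lie within 1 kb, H3K27me3 was left at 15. Both settings were read for the members only. The shares of all genes under them were not computed, so how the contrast with all genes changed is not known.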

How the data were processed

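Chromatin of MYCN-driven lymphoma cells was profiled with 7 antibodies, 1 library each; 2 input libraries were not used here. Per the submitters' processing notes, FastQC, Bowtie2, SAMtools, MACS2 and deepTools were used on mm10 and GRCm38, with no versions or settings given. The deposited peak lists hold, as the authors' values, a fold enrichment (a linear ratio) and −log10 p-value and −log10 q-value for each peak. They give no read counts, so the depth behind a peak is unknown, and how the inputs entered the calling is not given in the sources used here. No header accompanies the lists.

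Peaks were joined to RefSeq gene models and promoter-table starts (windows of 1 kb on either side, overlap of at least 1 bp) with Python 3.11.15, pandas 2.3.3 and numpy 2.4.6, tested on simulated data. Domains join peaks within 3 kb, and peaks off H3K4me3 were counted over the gene body and 100 kb on either side. All 34 members are named, and other named genes come from the related and marker lists, of which a few genes are not reported here. Members and lists were chosen with earlier results of these data known. No statistical test was possible with 1 library per antibody. Alternative thresholds, windows and start definitions were tried.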

Additional observations from a re-analysis of the deposited data

How the results depend on the processing

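Of 121 alternative counts over 11 settings, 99 stayed within 1.5 times the value reported and 22 did not; 3 of the settings were chosen after seeing the data. With only the 24 members that have a table start, 10 members drop out by construction: EZH2 was at 17, SUZ12 at 15 and H3K27me3 at 18, the Polycomb class held 11, the median share of the gene body in H3K27me3 was 42.0% and the median EZH2 fold enrichment 10.8. Using only the table's starts for these 24 gave 16, 14 and 17, a Polycomb class of 11, 2 unmarked members and a fold enrichment of 10.9. Using only the 5′ end of the gene model gave 17, 15 and 17, a Polycomb class of 11 and 2 unmarked members. Requiring the summit in the window left H3K27me3 at 15 members and 5 unmarked, with an EZH2 median of 7.16. Lists of equal length left H3K27ac at 2 and H3K4me3 at 5, with 2 mixed, 3 active and 5 unmarked members and a body share of 66.4%. A window of 5 kb gave p300 at 2 members. The summit rule, the lists of equal length and the 5 kb window were read for the members only, without the same shares over all genes. The body share was 72.2% both with a q-value of at most 1e-05 and with a fold enrichment of at least 4, where the EZH2 median was 10.3. It was 90.7% without Tbx6, the member with a neighbouring start, and 35.6% without the first 1 kb of the body, which could be computed only for the 24 members with a table start (42.0% with the first 1 kb). The cause was not tested where no member was left out. The number of reads is unknown, so a missing peak may lie under the calling threshold. No paired analysis was possible because each antibody had 1 library.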
